A study of Mus musculus with 8 samples.

Results

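The miR-148 and miR-152 family comprises 3 microRNA genes, Mir148a, Mir148b and Mir152, whose hairpins lie on different chromosomes. Its members were taken by name, as both arms of each hairpin, and all 6 mature miRNAs were among the 1915 names listed for every library. The libraries are small RNA from the prefrontal cortex of C57BL/6 mice aged 12 weeks. There were 4 from wild type mice, numbered 1 to 4, and 4 from Fkbp5 Knockout mice, numbered 1, 2, 4 and 5. The Fkbp5 protein is an Hsp90 co-chaperone that lowers the hormone affinity of the glucocorticoid receptor, and the study set cortical miRNAs with and without it side by side. The labels do not say how the knockout allele was made or whether each library is 1 animal, and the p-values reflect only how far these libraries vary, which may be technical. In bulk tissue, fewer cells of a type and less RNA per cell cannot be told apart.

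A microRNA is cut from a hairpin precursor as a short duplex, of which 1 strand, the guide, is loaded into Argonaute and the other, the passenger, is mostly lost. The guide finds messenger RNAs chiefly through its seed, bases 2 to 8 from its 5′ end, so miRNAs with the same seed can share targets. The guides of this family are best known for repressing the messenger RNA of Dnmt1, the maintenance DNA methyltransferase, and miR-148a also for repressing the LDL receptor in liver. All members matched a RefSeq sequence (GRCm38.p6, the assembly that mm10 names).

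The 3p strands (mmu marks mouse, and is left off below) are shown because they carry the shared seed, which is in capitals.
mmu-miR-148a-3p: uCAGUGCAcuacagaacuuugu
mmu-miR-148b-3p: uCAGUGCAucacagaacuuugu
mmu-miR-152-3p: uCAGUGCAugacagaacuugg
Of 1679 mature names in the RefSeq table, these 3 alone had the seed CAGUGCA. Counted from the 5′ end, miR-148a-3p and miR-148b-3p differed by C9U and U10C. miR-152-3p is 1 base shorter and differed from miR-148a-3p by C9U, U10G and U20G, and from miR-148b-3p by C10G and U20G. All of these differences lie outside the seed. How reads were divided between such similar strands is not given in the sources used here, and its part in the values below was not tested.

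The 5p strands, again with bases 2 to 8 in capitals, are shown because they do not all share a seed.
mmu-miR-148a-5p: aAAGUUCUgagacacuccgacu
mmu-miR-148b-5p: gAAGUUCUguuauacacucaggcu
mmu-miR-152-5p: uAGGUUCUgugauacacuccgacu
The seed AAGUUCU of miR-148a-5p and miR-148b-5p was found in these 2 names only, and AGGUUCU in miR-152-5p only. The change A3G lies within the seed of miR-152-5p when it is set against either of the others. Position by position from the 5′ end with no gap, 13 of 22 bases were identical between miR-148a-5p and miR-148b-5p. Their 3p partners had 20 of 22 identical. The 2 passengers are 22 and 24 bases long, so a gap, which was not allowed, could bring more bases into step. This count therefore does not settle how alike they are.

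The hairpins are shown with both mature strands in capitals, the 5p strand first.
Mir148a: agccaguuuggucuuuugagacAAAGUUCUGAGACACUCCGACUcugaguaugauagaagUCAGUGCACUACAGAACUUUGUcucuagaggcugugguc
Mir148b: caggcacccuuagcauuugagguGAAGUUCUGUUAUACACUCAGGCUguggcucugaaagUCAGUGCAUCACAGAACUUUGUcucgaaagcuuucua
Mir152: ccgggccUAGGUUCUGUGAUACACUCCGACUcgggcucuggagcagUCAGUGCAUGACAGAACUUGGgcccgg
Mir148a lies on the minus strand at chr6:51269812-51269910 (GRCm38), overlaps no other annotated gene, and its nearest neighbour within 50 kb is the long non-coding RNA Gm32479, 13622 bases away. Mir148b lies on the plus strand at chr15:103285125-103285221, in an intron of Copz1. Mir152 lies on the plus strand at chr11:96850393-96850465, in an intron of Copz2. Copz1 and Copz2 encode alternative zeta subunits of the COPI coat, which moves cargo from the Golgi back to the endoplasmic reticulum. The surroundings of the 2 intronic loci are alike as well: Mir148b has Cbx5 and Nfe2 within 50 kb, and Mir152 has the related genes Cbx1 and Nfe2l1. No other annotated miRNA gene lies within 50 kb of any of the 3 hairpins.

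The family's level in cortex came almost wholly from the 3p strands of 2 loci. Values are the deposited values divided by a scaling factor per library (rescaled values). Since the mature strands are 21 to 24 bases long and each read spans a whole strand, they were compared without division by length, although adapter ligation favours some sequences over others and was not corrected for. Over the 8 libraries miR-148a-3p averaged 5838 and ranked 94th of all names, miR-148b-3p averaged 4173 and ranked 117th, and miR-152-3p averaged 882 and ranked 215th. The 5p strands were far lower, with means of 37.7 for miR-148b-5p, 12.1 for miR-148a-5p and 3.25 for miR-152-5p. That order held in 8 of 8 libraries for each of the 5 neighbouring pairs.

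Each step between neighbours was larger than its spread. The narrowest step was miR-148a-3p over miR-148b-3p, a mean log2 ratio of 0.48 ± 0.16 (SD, n = 8), or 1.39-fold. The widest was miR-152-3p over miR-148b-5p, at 4.57 ± 0.58 or 23.7-fold. The remaining steps were 4.72-fold between miR-148b-3p and miR-152-3p, 3.09-fold between miR-148b-5p and miR-148a-5p, and 3.58-fold between miR-148a-5p and miR-152-5p. The size of the steps between 5p strands depends on the amount added to these low values. With 5 added, the mean log2 ratio of miR-148a-5p over miR-152-5p was 1.06 instead of 1.84. That of miR-148b-5p over miR-148a-5p was 1.33 instead of 1.63. Each of the 5 steps had a two-sided exact sign-flip permutation p of 0.0078, the smallest that 8 libraries allow, and 0.0078 after Benjamini-Hochberg adjustment over the 5. The order was itself taken from the means of these libraries, so these p-values are no separate support for it.

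**Figure D1:**
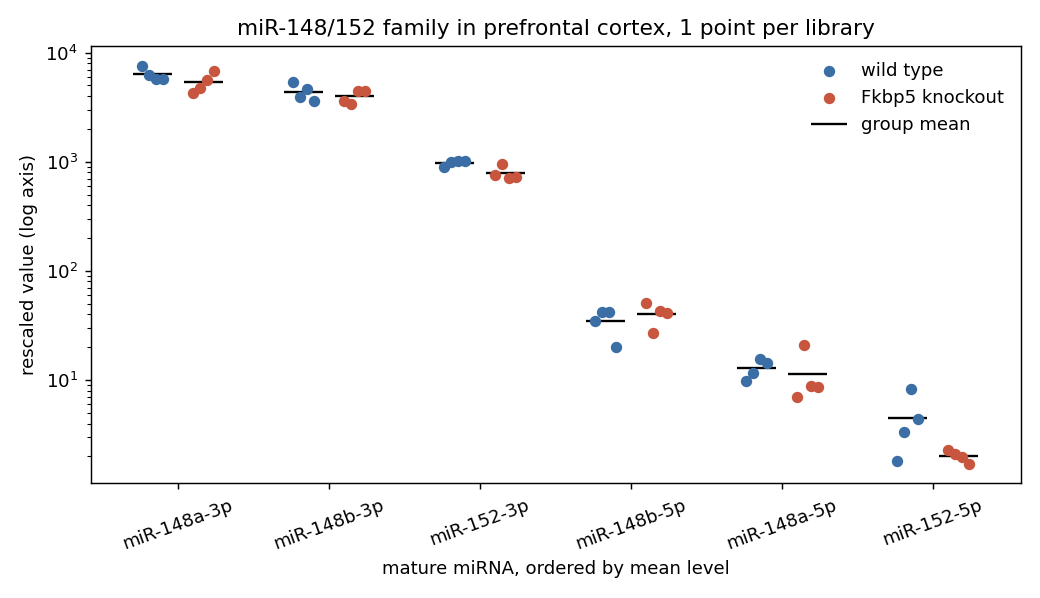
Rescaled value of each member on a log axis, with 1 point per library in blue for wild type and red for Fkbp5 knockout, and a black line at each group mean. The 3p strands sit between 709 and 7566 and the 5p strands between 1.72 and 50.9, and the genotypes overlap for every member.

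Taking the 3 guides as a single seed pool, Mir148a supplied most of it in nearly every library. Its share of the summed 3p strands was 54.5%, 56.0%, 50.7% and 55.3% in wild type replicates 1 to 4, and 49.6%, 52.3%, 52.1% and 56.7% in knockout replicates 1, 2, 4 and 5. Mir148b supplied between 35.0% and 41.7%, and Mir152 between 6.11% and 10.5%. The shares of each locus overlapped between genotypes. The summed pool averaged 11693 ± 1526 (SD) over the 4 wild type libraries and 10096 ± 1502 over the 4 knockout libraries. In wild type it ran from 10313 to 13871 and in the knockout from 8681 to 11912, so 3 of the 4 wild type libraries lay within the knockout's range and replicate 1 above it.

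The balance between loci was compared by genotype through within-library ratios, which need no rescaling. miR-148a-3p over miR-148b-3p had a mean log2 ratio of 0.54 ± 0.16 (SD) in the 4 wild type and 0.42 ± 0.16 in the 4 knockout libraries, a difference of -0.12 with a two-sided exact permutation p of 0.343. It was -0.06 without knockout replicate 1 and -0.19 without wild type replicate 3. For miR-148b-3p over miR-152-3p the means were 2.15 ± 0.34 and 2.33 ± 0.38 (difference 0.18, exact permutation p = 0.486). That difference was 0.35 without knockout replicate 2, 0.08 when either library numbered 4 was left out, and 0.09 without knockout replicate 5. For miR-148a-3p over miR-152-3p the means were 2.69 ± 0.28 and 2.75 ± 0.41 (difference 0.07, exact permutation p = 0.886), and this difference turned to -0.01 without knockout replicate 4 and to -0.09 without knockout replicate 5. Adjusted over the 3 ratios, the p-values were 0.729, 0.729 and 0.886, where 70 arrangements allow no raw p under 0.0286. The differences were therefore within the spread between libraries.

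All 3 hairpins kept the 3p strand. The 5p strand of miR-148a made up 0.215% ± 0.104 of both strands over the 8 libraries (SD), that of miR-152 0.352% ± 0.201 and that of miR-148b 0.904% ± 0.258. Set among the 222 hairpins with both arms named and the larger at a mean of at least 100, these shares were unremarkable: 45.5% of those hairpins had a minor strand under 1%, and from the most one-sided down miR-148a was 57th, miR-152 was 70th and miR-148b was 99th. miR-148b kept the largest 5p share of the family in 8 of 8 libraries.

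A test was set for hairpins whose arms each averaged 20 or more, and miR-148b alone among the 3 reached that level. Its 5p share was 0.643%, 1.07%, 0.897% and 0.551% in wild type replicates 1 to 4 and 1.39%, 0.801%, 0.961% and 0.921% in knockout replicates 1, 2, 4 and 5. The highest value was a knockout library and the lowest a wild type library, with overlap between. Its log2 ratio of 5p to 3p was -7.00 ± 0.43 (SD) in the 4 wild type and -6.62 ± 0.34 in the 4 knockout libraries, a difference of 0.38 ± 0.25 (SE) with a 95% interval of -0.16 to 0.92 (limma, adjusted p = 0.975). The difference was 0.22 without knockout replicate 1 and 0.23 without wild type replicate 4. Among 141 such hairpins 0.0% passed an adjusted p of 0.05 and 2.13% (3 hairpins) an unadjusted one, a count that became 6, 9 and 7 without wild type replicates 2, 3 and 4. For miR-148a (-8.90 ± 0.47 and -8.93 ± 0.78) and miR-152 (-7.80 ± 0.76 and -8.28 ± 0.21) the ratios rest on 5p values of at most 20 as deposited, and no test was made.

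**Figure D2:**
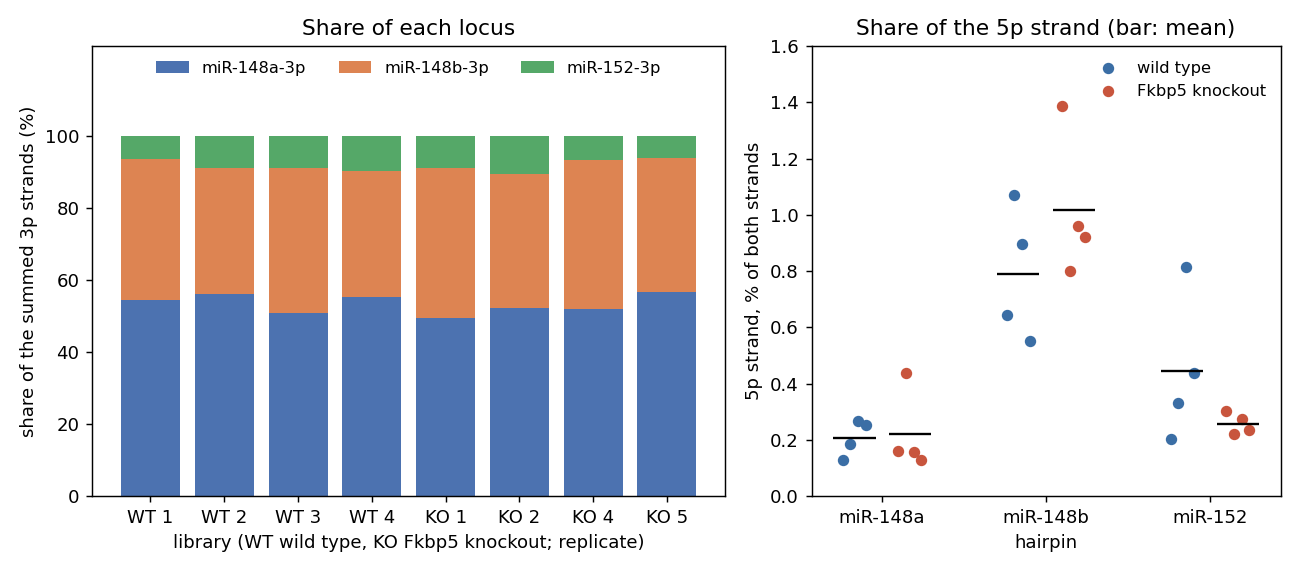
Left, stacked bars give the percent of the summed 3p strands from each locus in each library; right, points give the 5p strand as a percent of both strands of a hairpin, with 1 point per library and a bar at the group mean. Mir148a supplies 49.6% to 56.7% of the pool, and the 5p strand stays at or under 1.39% for every hairpin.

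By genotype, the 3 guides had lower means in the knockout and none passed the test. miR-152-3p was 889.9, 1001, 1014 and 1008 in wild type replicates 1 to 4 and 759, 951, 709 and 728 in knockout replicates 1, 2, 4 and 5. The value of knockout replicate 2 fell inside the range of the wild type, and the other 3 knockout libraries lay below it. Group means were 978 ± 59.1 and 787 ± 112 (SD, n = 4 each). The log2 fold change was -0.32 ± 0.13 (SE), or 0.80-fold with a 95% interval of 0.659 to 0.971-fold, and limma gave an unadjusted p of 0.0278 (adjusted p = 0.967). With 1 library left out the log2 fold change ran from -0.27 to -0.42, the latter without knockout replicate 2 (adjusted p = 0.606 by limma). The unadjusted p of limma stayed under 0.05 in 2 of these 8 fits, those without wild type replicate 1 or knockout replicate 2, and was up to 0.0875 in the other 6. It was 0.0715 with upper quartile scaling and 0.121 in the values as deposited, but 0.0204 with median of ratios scaling and 0.0498 with library total scaling. Over all 19 alternatives it was under 0.05 in 9 and not in 10.

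miR-148a-3p, the most abundant member, was 7566, 6272, 5784 and 5700 in wild type replicates 1 to 4 and 4304, 4743, 5585 and 6752 in knockout replicates 1, 2, 4 and 5. Here knockout replicate 5 was the library within the wild type range, not replicate 2. The means of 6331 ± 862 and 5346 ± 1078 (SD, n = 4 each) gave a log2 fold change of -0.26 ± 0.15 (SE), with a 95% interval of 0.665 to 1.06-fold (limma, adjusted p = 0.994). It was -0.16 without knockout replicate 1 and -0.17 without wild type replicate 1. Leaving out knockout replicate 5 moved it the other way, to -0.38 (limma, unadjusted p = 0.0247, adjusted p = 0.982).

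miR-148b-3p was 5415, 3917, 4600 and 3605 in wild type replicates 1 to 4 and 3618, 3368, 4433 and 4431 in knockout replicates 1, 2, 4 and 5. Among the knockout libraries, replicate 2 alone lay under the lowest wild type value. The log2 fold change was -0.14 ± 0.15 (SE), with a 95% interval of 0.723 to 1.14-fold (limma, adjusted p = 0.994). It was -0.03 without wild type replicate 1, -0.06 without knockout replicate 2 and -0.23 without wild type replicate 4. For each guide the interval excluded a 2-fold change in either direction, and for the miR-148 guides it included no change.

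The passenger strands were measured with much less precision. miR-148b-5p was 35.1, 42.4, 41.6 and 19.96 in wild type replicates 1 to 4 and 50.9, 27.2, 43.0 and 41.2 in knockout replicates 1, 2, 4 and 5, with wide overlap (log2 fold change 0.24 ± 0.28, SE). Its log2 fold change was 0.0018 without wild type replicate 4, 0.12 without knockout replicate 1 and 0.42 without knockout replicate 2. miR-148a-5p was between 9.89 and 15.5 in wild type, and 6.94, 20.9, 8.80 and 8.59 in the knockout (log2 fold change -0.27 ± 0.36, SE), which became -0.59 without knockout replicate 2 and -0.10 without knockout replicate 1. It passed the filter on low values in exactly the 4 libraries required. These were wild type replicates 2, 3 and 4 and knockout replicate 2, which held its highest value. miR-152-5p did not pass the filter: its deposited values were 2, 4, 7 and 4 in wild type and 2 in each knockout library, and it was not tested.

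Of the 5 tested members, 0 passed an adjusted p of 0.05 by limma, against 0.0% of 599 tested miRNAs. At an unadjusted p under 0.05 there was 1 member, miR-152-3p, against 4.01% of all tested (24 miRNAs, or 14 without knockout replicate 4). Lower in the knockout at that level were the same member and 2.67% of all tested. Negative log2 fold changes were found for 4 of the 5, against 46.1% of all tested. Among the 4 is miR-148a-5p, which passed the filter chiefly through wild type libraries. The median log2 fold change was -0.26 for the 5 and 0.02 for all 599. In no member were the genotypes free of overlap, as they were in 1.5% of all tested.

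**Figure D3:**
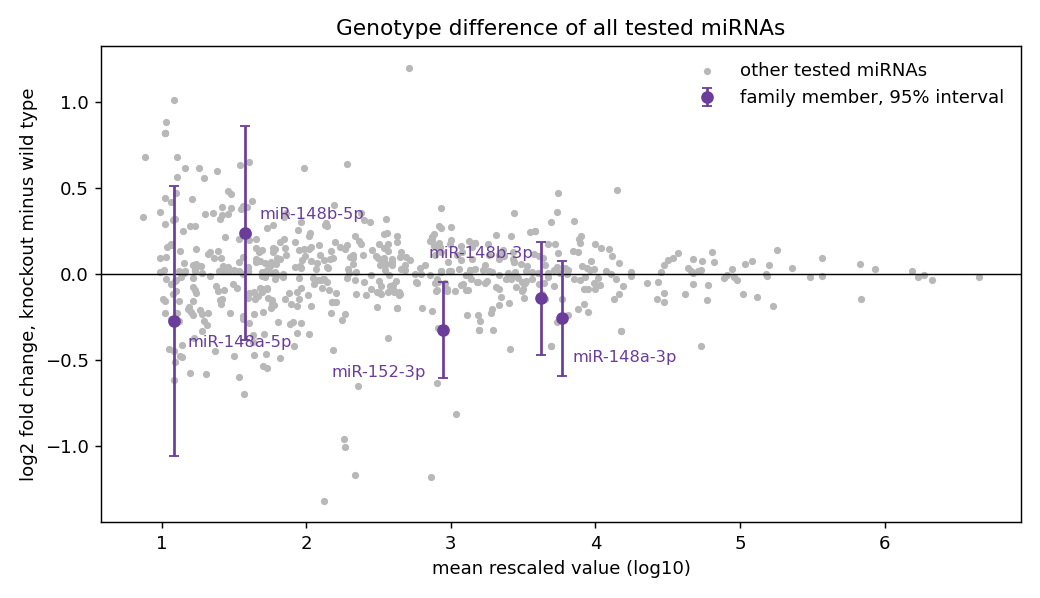
Log2 fold change, knockout minus wild type, against the mean rescaled value (log10) for the 599 tested miRNAs in grey, with the 5 tested family members in purple and their 95% intervals. The interval of miR-152-3p, 0.659 to 0.971 as a fold, is the 1 family interval that does not cross the line of no change, and intervals widen for the 5p strands.

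Between libraries the 2 miR-148 guides tended to be high and low together. miR-148a-3p and miR-148b-3p were both highest in wild type replicate 1, and had their lowest values in knockout replicates 1 and 2 respectively. Their log2 values had a Pearson r of 0.788 over the 8 libraries (exact permutation p = 0.0207, adjusted 0.124 over 6 relations) and a Spearman rho of 0.643 (exact permutation p = 0.0962, adjusted 0.289), and r was 0.609 without wild type replicate 1 and knockout replicate 1. The relation therefore did not pass adjustment. In the values as deposited r was 0.928 (adjusted exact permutation p = 0.0103), and after scaling to the library total it was 0.856 (adjusted exact permutation p = 0.0411). With median of ratios scaling it was 0.814 and with upper quartile scaling 0.754 (adjusted exact permutation p = 0.0853 and 0.197). The values as deposited keep library differences that the scaling factors remove. In them miR-152-3p also had a higher r with miR-148a-3p (0.634 against 0.0898 after rescaling) and miR-148b-3p (0.401 against -0.188). Its r with miR-152-5p was lower (0.330 against 0.679). The part of the library differences in the r of 0.928 was not tested.

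The relation of miR-152-3p to the miR-148 guides depended on the scaling and on whether genotype means were removed. Against miR-148a-3p its Pearson r was 0.0898 (exact permutation p = 0.829, rho 0.0952 with p = 0.840), and -0.283 without wild type replicate 1 and knockout replicate 1. Against miR-148b-3p r was -0.188 (exact permutation p = 0.658, rho -0.143 with p = 0.752), and -0.218 without wild type replicate 1 and knockout replicate 2. Wild type replicate 1 held the highest value of both miR-148 guides and the lowest wild type value of miR-152-3p. Adjusted over the 6 relations, all 4 of these p-values were at 0.829 or above. In the values as deposited r was 0.634 against miR-148a-3p (exact permutation p = 0.0870, adjusted 0.261) and 0.401 against miR-148b-3p. With the mean of each genotype removed first, a choice made after seeing the data, r was -0.587 and -0.739, and 0.766 between the miR-148 guides. The difference between these correlations and that of the miR-148 guides was not tested.

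Guide and passenger of the same hairpin were also set against each other. For miR-152 r was 0.679 (exact permutation p = 0.0421, adjusted 0.126) and rho 0.833 (exact permutation p = 0.0154, adjusted 0.0923), and r was 0.596 without knockout replicates 4 and 5. It was 0.390 with genotype means removed and 0.330 in the values as deposited (exact permutation p = 0.411, adjusted 0.493). For miR-148b r was 0.337 (exact permutation p = 0.420, rho 0.262 with p = 0.536) and 0.378 without wild type replicate 1 and knockout replicate 2. For miR-148a r was -0.115 (exact permutation p = 0.782, rho -0.0238 with p = 0.977) and -0.757 without wild type replicate 1 and knockout replicate 1. The adjusted values of the last 2 hairpins were 0.829 or above. None of the 3 passed adjustment, and the deposited 5p values of miR-152 were at most 7.

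The miRNAs whose levels followed miR-152-3p most closely were not those that followed the miR-148 guides. Likeness was the Pearson r of log2 values over the 8 libraries, among 365 tested miRNAs outside the family with a mean of at least 100, and is given as a description. For miR-148a-3p the closest were miR-379-3p (r = 0.868), miR-382-3p (0.855) and miR-665-3p (0.852), all from the imprinted Dlk1-Dio3 domain of chromosome 12. For miR-148b-3p they were miR-222-5p (0.891), miR-665-3p (0.816) and miR-382-3p (0.808), so that 2 of the 3 names were shared with miR-148a-3p. How many of the 365 candidates lie in the Dlk1-Dio3 domain was not counted, and a link to that domain was not tested.

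For miR-152-3p the closest were miR-199a-3p (r = 0.970), miR-322-3p (0.945) and miR-143-3p (0.918). miR-143 and miR-199a are abundant in smooth muscle and other mesenchymal cells. miR-199a-3p was 5182, 5328, 5653 and 6276 in wild type replicates 1 to 4 and 3934, 5667, 3693 and 3768 in knockout replicates 1, 2, 4 and 5. Knockout replicates 1, 4 and 5 sat apart from the other 5 libraries for both miR-152-3p and miR-199a-3p. How far these r values rest on that gap was not tested.

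Markers of smooth muscle and mesenchyme, a list that holds miR-143-3p and miR-199a-3p, had their lowest sums in the libraries where miR-152-3p was lowest. Those 2 miRNAs, already named for their likeness to miR-152-3p, made up 93.5% to 95.6% of the sum, so the shared low libraries follow from that choice and are no separate result. All 8 listed miRNAs were present and none was at 0 in every library. Of these, 6 were tested and 0 passed an adjusted p of 0.05 by limma. At an unadjusted p under 0.05 there were 2, miR-143-3p and miR-199a-3p, against 4.01% of all tested. All 6 log2 fold changes were negative (median -0.33), against 46.1% of all tested. These 6 include the 2 named for likeness, both arms of miR-145a and of miR-199a, and miR-214-3p at a mean of only 11.2. The list's summed rescaled value ran from 62673 to 84336 in wild type. In the knockout it was 51689, 43176 and 47429 in replicates 1, 4 and 5 and 74188 in replicate 2, the library in which miR-152-3p was also within the wild type range. miR-143-3p, the most abundant of the list, was at -0.42 ± 0.17 (SE) and miR-199a-3p at -0.41 ± 0.15. The other 4 tested were miR-145a-5p (-0.07 ± 0.23), miR-145a-3p (-0.24 ± 0.12), miR-199a-5p (-0.12 ± 0.22) and miR-214-3p (-0.43 ± 0.41), named outside the rule. Summed without the 2 leading miRNAs, a choice made after seeing the data, the list was 2938, 4625, 3984 and 3088 in wild type replicates 1 to 4 and 3248, 4003, 2822 and 2994 in knockout replicates 1, 2, 4 and 5. These sums overlapped between genotypes, and knockout replicate 1 was above 2 wild type libraries. The part of these cells in the miR-152-3p values was not tested. The endothelial pair, miR-126a-3p and miR-126a-5p, was at -0.07 ± 0.11 and -0.12 ± 0.17 (neither past adjustment), with sums of 16908 to 24187 in wild type and 17078 to 20149 in the knockout.

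**Figure D4:**
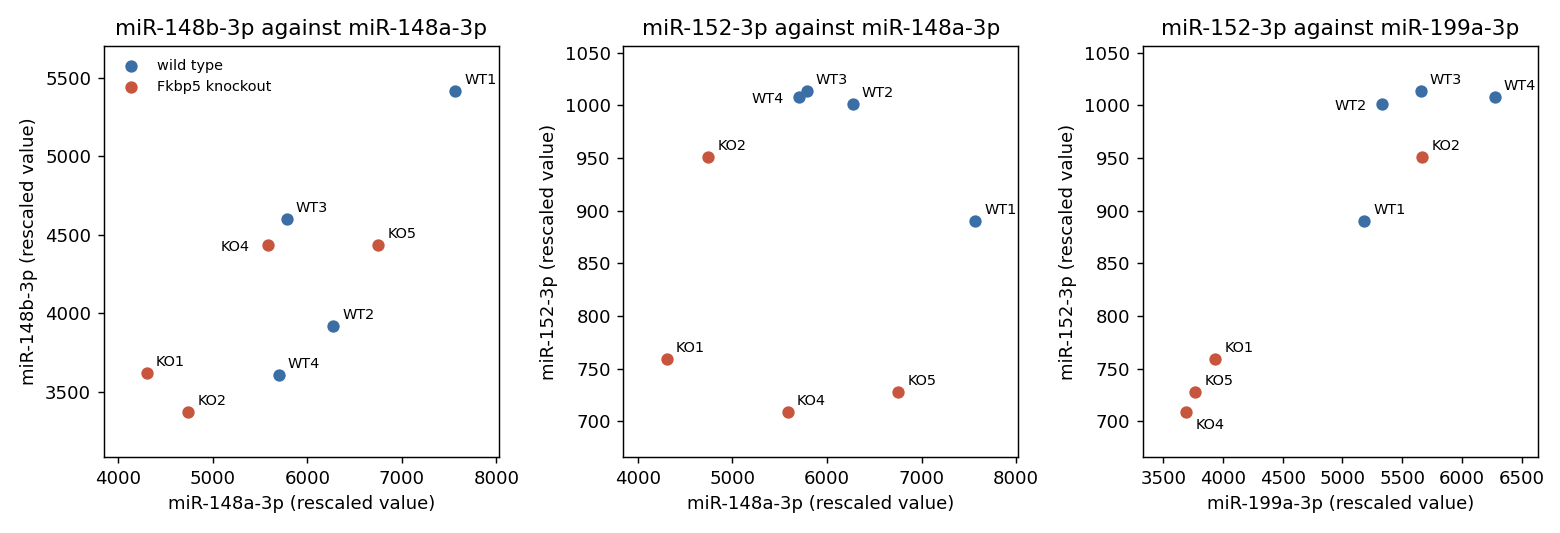
Rescaled values of pairs of miRNAs with 1 labelled point per library, blue for wild type and red for Fkbp5 knockout; from left to right miR-148b-3p against miR-148a-3p (r = 0.788), miR-152-3p against miR-148a-3p (r = 0.0898) and miR-152-3p against miR-199a-3p (r = 0.970), with r on log2 values. In the last panel knockout replicates 1, 4 and 5 form a low group and knockout replicate 2 lies among the wild type libraries.

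The spread between libraries of the same genotype was 16.7% of the mean for miR-148a-3p, 16.5% for miR-148b-3p and 10.1% for miR-152-3p. The median over the 251 tested miRNAs with a mean of at least 500 was 12.7%. The passenger strands spread by 26.9% for miR-148b-5p and 40.7% for miR-148a-5p, against a median of 18.1% over all 599.

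Other miRNAs known for targeting chromatin and DNA methylation genes did not pass the test either. Of 14 listed, all were tested, and 6 had positive and 8 negative log2 fold changes, where 46.1% of all tested were negative. By limma 0 passed an adjusted p of 0.05, against 0.0% of all tested, and the median was -0.02. The 4 most abundant were miR-9-5p (-0.03 ± 0.08, SE), miR-26a-5p (-0.02 ± 0.07), which targets Ezh2, miR-124-3p (0.06 ± 0.16) and miR-132-3p (0.08 ± 0.12), which is induced by neuronal activity. The miR-29 guides, which target the de novo DNA methyltransferases, were at -0.02 ± 0.13 (miR-29a-3p), -0.07 ± 0.17 (miR-29b-3p) and -0.09 ± 0.15 (miR-29c-3p), and they were named for that role outside the rule. The list's 1 unadjusted p under 0.05, against 4.01% of all tested, was that of miR-101a-3p (-0.33 ± 0.13). That miRNA was also outside the rule and also not past adjustment.

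As to the series as a whole, deposited totals ran from 16.2 to 21.6 in units of 1000000 per library, and 585 names had no value above 0 in any library. Neuronal miRNAs led the libraries, with miR-128-3p at a mean of 4483690 and miR-9-5p at 2128500, in keeping with the labelled tissue. Small RNA libraries do not hold Fkbp5 messenger RNA, which leaves the knockout labels unchecked here.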

How the data were processed

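Small RNA libraries were made with a NEXTflex kit after enrichment of short RNA on columns and size selection on a gel, per the labels' protocols. The submitters' processing notes name cutadapt 1.11, Bowtie 1.1.2, HTSeq 0.6.1p1 and edgeR, with the build mm10, without order or settings. Per the file headers the authors deposited a normalized count for each mature miRNA. The deposited values, which the authors' headers call normalized but which are all whole numbers, were handled as a score without a fixed unit, and no count model was run. How they were normalized is not given in the sources used here.

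Values were divided by factors from a weighted trimmed mean of log ratios (30% of ratios and 5% of levels trimmed at each end), between 0.840 and 1.20. The test covered the 599 miRNAs with 10 or more (relative to the median total) in 4 or more libraries and a sum of 15. log2(value + 1) was compared with limma 3.58.1 in R 4.3.3 (empirical Bayes with a trend, Benjamini-Hochberg adjustment over all tested). Fold changes are on that scale and are too small for low miRNAs. Ratios of strands used 0.5 added to each value and no rescaling. Exact permutation tests are two-sided and were run in Python 3.11.15. The procedure was tested on simulated data. Since depth before normalization is unknown, no counting intervals are given.

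All 6 members were named. For each guide the 3 miRNAs of highest Pearson r were named, with the 4 most abundant of the chromatin list, the most abundant 1 or 2 of each marker list and any miRNA gene within 50 kb. Members, lists and rules were chosen with earlier results of these data known.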

Additional observations from a re-analysis of the deposited data

Results flagged for a closer look

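Of 26 groups of 4 libraries examined, covering the members' values, their ratios and the summed guides, 2 had a library standing apart from its group; about 1 in 20 groups would by chance, or 1.3. miR-152-3p was lower in wild type replicate 1 (889.9, the others 1001 to 1014), the same library that held the highest values of miR-148a-3p and miR-148b-3p. miR-148a-5p was higher in knockout replicate 2 (20.9, the others 6.94 to 8.80).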

How the results depend on the processing

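The scaling, the pseudocount, the filter, the trend and single libraries were varied. The 93 alternative log2 fold changes of the 5 tested members kept their direction and 0 passed adjustment (adjusted p 0.594 to 0.999 by limma). So did 14 values of the miR-148b arm ratio. All 50 values of the level order stayed past the threshold by exact sign-flip permutation, at 0.0078 or, with 1 library left out, 0.0156. Each is the smallest p its libraries allow, and the order was taken from these data, so this adds no separate support. Same-numbered libraries had correlations of 0.0648, -0.0385 and 0.132. Whether the replicate numbers pair them cannot be decided from so few libraries. A replicate block on numbers 1, 2 and 4 gave -0.27 for miR-152-3p and -0.42 for miR-148a-3p. The same libraries with no replicate block gave the same values. With the block, 1 miRNA was past adjustment (0 without it) and 43 unadjusted, against 39 in the same libraries with no replicate block. The block called no member. For arm ratios it gave 2 hairpins past adjustment and 11 unadjusted, against 0 and 6 in the same libraries with no replicate block. The unadjusted count of 24 was 9 in the values as deposited, 50 with no filter and 14 at 10 per 1000000, where 1330 and 323 were tested, and 14 to 34 with 1 library left out; the cause was not tested for the values as deposited. The r of miR-148a-3p with miR-152-3p was -0.0852 with upper quartile scaling, -0.587 with genotype means removed, 0.294 with library total scaling, 0.634 as deposited and -0.209 to 0.317 with 1 library left out. That of miR-148a-3p with miR-148a-5p was 0.0111 with library total scaling, 0.139 as deposited and -0.724 to 0.270 with 1 library left out, and that of miR-148b-3p with miR-152-3p was 0.401 as deposited. The r of the miR-148 guides was past adjustment at 0.856 (library total) and 0.928 (as deposited). It was not past adjustment at 0.754 (upper quartile scaling) or 0.814 (median of ratios scaling). The genotype difference in miR-148a-3p over miR-152-3p ran from -0.0874 to 0.211 with 1 library left out. Low 5p values limit what can be seen of the passenger strands.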

Other observations

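Markers of other cells were compared by their summed rescaled values and by limma, and 0 members of any list passed an adjusted p of 0.05. Of all tested miRNAs, 46.1% had negative log2 fold changes. Of 7 tested epithelial and olfactory bulb miRNAs all had negative log2 fold changes (median -0.96). The list's sums were 2748, 6139, 5218 and 1771 in wild type replicates 1 to 4. In knockout replicates 1, 2, 4 and 5 they were 969, 1300, 1526 and 5867. miR-183-5p was at -0.81 ± 0.47 (SE). The microglia and leukocyte list had 3 positive and 3 negative (median -0.16), led by miR-150-5p at 0.18 ± 0.15. The red blood cell list had 1 positive and 3 negative (median -0.17), led by miR-486a-5p at 0.25 ± 0.17. The neuronal list had 4 positive and 2 negative (median 0.07), led by miR-128-3p at -0.02 ± 0.14. The 3 oligodendrocyte miRNAs were all negative (median -0.21), led by miR-219a-2-3p at -0.15 ± 0.14. That list's 1 unadjusted p under 0.05, against 4.01% of all tested, was that of miR-219a-5p (-0.60 ± 0.21, limma, unadjusted p = 0.0154). It was named outside the rule and was not past adjustment.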
